A study of Mus musculus with 12 samples.

Results

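The effect of Atg5 loss during bleomycin (BLM) injury was read from 6 of the 12 RNA libraries of the series, 3 of Atg5-/- AT2-BLM and 3 of AT2-BLM, taken by their group labels. AT2 cells are the surfactant-making epithelial cells of the alveolus. AT2-BLM cells came from Atg5 f/f mice, which carry floxed Atg5 and no Cre and are labelled wild type. Atg5-/- AT2-BLM cells came from Atg5 f/f mice that also carried Nkx2.1 Cre, whose Cre acts in the whole lung epithelium and from development on, so Atg5 was lost in other airway and alveolar cells as well as in AT2 cells. Both groups were C57BL/6, received BLM through the trachea at 2 U/kg, and were sorted on day 14 for EpCAM+ cells that lacked CD31, CD34, CD45, CD24 and Sca-1. The methods give male mice of 8 to 12 weeks for BLM experiments. The design text calls the 3 samples of a group biological replicates and does not say how many mice each holds.

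Atg5 is needed to conjugate LC3 to membranes, a step in forming the autophagosome that carries cytoplasm to the lysosome. BLM breaks DNA and kills alveolar epithelium, and surviving AT2 cells can divide and give rise to AT1 cells, the flat cells of gas exchange. On the way they are known to pass through a transitional state marked by keratins such as Krt8, by stress genes and by targets of the transcription factor p53, which answers DNA damage.

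Values are FPKM, in which fragments are divided by gene length and by the library's mapped fragments. Testing was limited to genes that reached an FPKM of 1 in 3 or more of the 12 libraries, which were 10675 of 21878. A difference is given on the log2(FPKM + 1) scale as Atg5-/- AT2-BLM minus AT2-BLM with its standard error (SE), a scale that compresses differences at low FPKM. Genes were called, and are said to rise or fall, at an unadjusted limma p under 0.05 and a fold of at least 1.4, which are the study's criteria.

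AT2-BLM replicate 3 stood apart from the other libraries of its group. Its correlations with AT2-BLM replicates 1 and 2 across the genes tested were 0.964 and 0.970, while these 2 correlated at 0.987. The Atg5-/- AT2-BLM libraries correlated with each other at 0.938 to 0.968. Atg5-/- AT2-BLM replicate 3 correlated more with AT2-BLM replicates 1 and 2 (0.979 and 0.983) than with its own group (0.968 and 0.965). Atg5-/- AT2-BLM replicate 1 correlated with AT2-BLM replicates 1 and 2 at 0.969 and 0.971, so correlations did not divide the libraries by genotype. The mean correlation with the other 5 libraries was lowest for Atg5-/- AT2-BLM replicate 2 (0.954), then for AT2-BLM replicate 3 (0.957). Y-linked transcripts also divided the libraries within groups, against the methods' statement of male mice. Eif2s3y was at 0.0889, 0 and 13.1 FPKM in AT2-BLM replicates 1 to 3, against 0.128, 8.25 and 12.4 FPKM in Atg5-/- AT2-BLM replicates 1 to 3. Lead results are therefore given without AT2-BLM replicate 3 and within libraries of like Y-linked status. Libraries without these transcripts were AT2-BLM replicates 1 and 2 and Atg5-/- AT2-BLM replicate 1. Those with them were AT2-BLM replicate 3 and Atg5-/- AT2-BLM replicates 2 and 3. Values within the first set thus rest on Atg5-/- AT2-BLM replicate 1, and within the second on AT2-BLM replicate 3, so they are no independent check of those libraries. The AT2 marker Sftpb, a surfactant protein gene, was at 8984 to 16778 FPKM in the 6 libraries, and Lamp3, of the lamellar body, was at 365 to 765 FPKM. Sftpc, the defining AT2 gene, was listed at 0 in 5 of the 6 libraries and at 112570 FPKM in AT2-BLM replicate 2, so it was not tested. Gapdh, used by every cell, was listed at 0.672 to 1.08 FPKM and was not tested either. Ly6a, which encodes the Sca-1 antigen that the sort was set to exclude, was at 63.1 to 984 FPKM.

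Of the genes tested, 551 (5.16%) were called, 218 higher (2.04%) and 333 lower (3.12%) in Atg5-/- AT2-BLM. An unadjusted p under 0.05 was found for 7.88% of the genes tested. Group ranges did not overlap for 13.4% of them, and 3.93% were both called and without overlap. The median difference over all genes tested was -0.05, with 6067 of the 10675 genes lower and 4603 higher. Against these shares, 14 of 26 tested p53 target and senescence genes were called lower. So were 18 of 28 tested genes of the transitional state and 12 of 40 tested glutathione and NRF2 target genes. No member of these lists was called higher. Of 26 tested genes of fatty acid synthesis and targets of the transcription factor SREBP1, 4 were called higher and none lower. The same counts held for 27 tested Wnt pathway genes. The lists were chosen with earlier results of these data known, so these counts are not independent support. Only Ear10 (0.00937% of genes tested) passed a Benjamini-Hochberg adjusted limma p of 0.05, so every other call rests on unadjusted p. The lower count depended on 1 library: without AT2-BLM replicate 3, 230 genes were called higher and 149 lower, and of the latter 110 were among the 333. Without Atg5-/- AT2-BLM replicate 1, 348 were called higher, and without Atg5-/- AT2-BLM replicate 3, 500 were called lower. The split also moved with scaling, to 268 higher and 261 lower after median-ratio scaling and to 355 higher and 90 lower after scaling to Cdh1, the epithelial cadherin gene, which raised the median of all genes to 0.09.

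**Figure D1:**
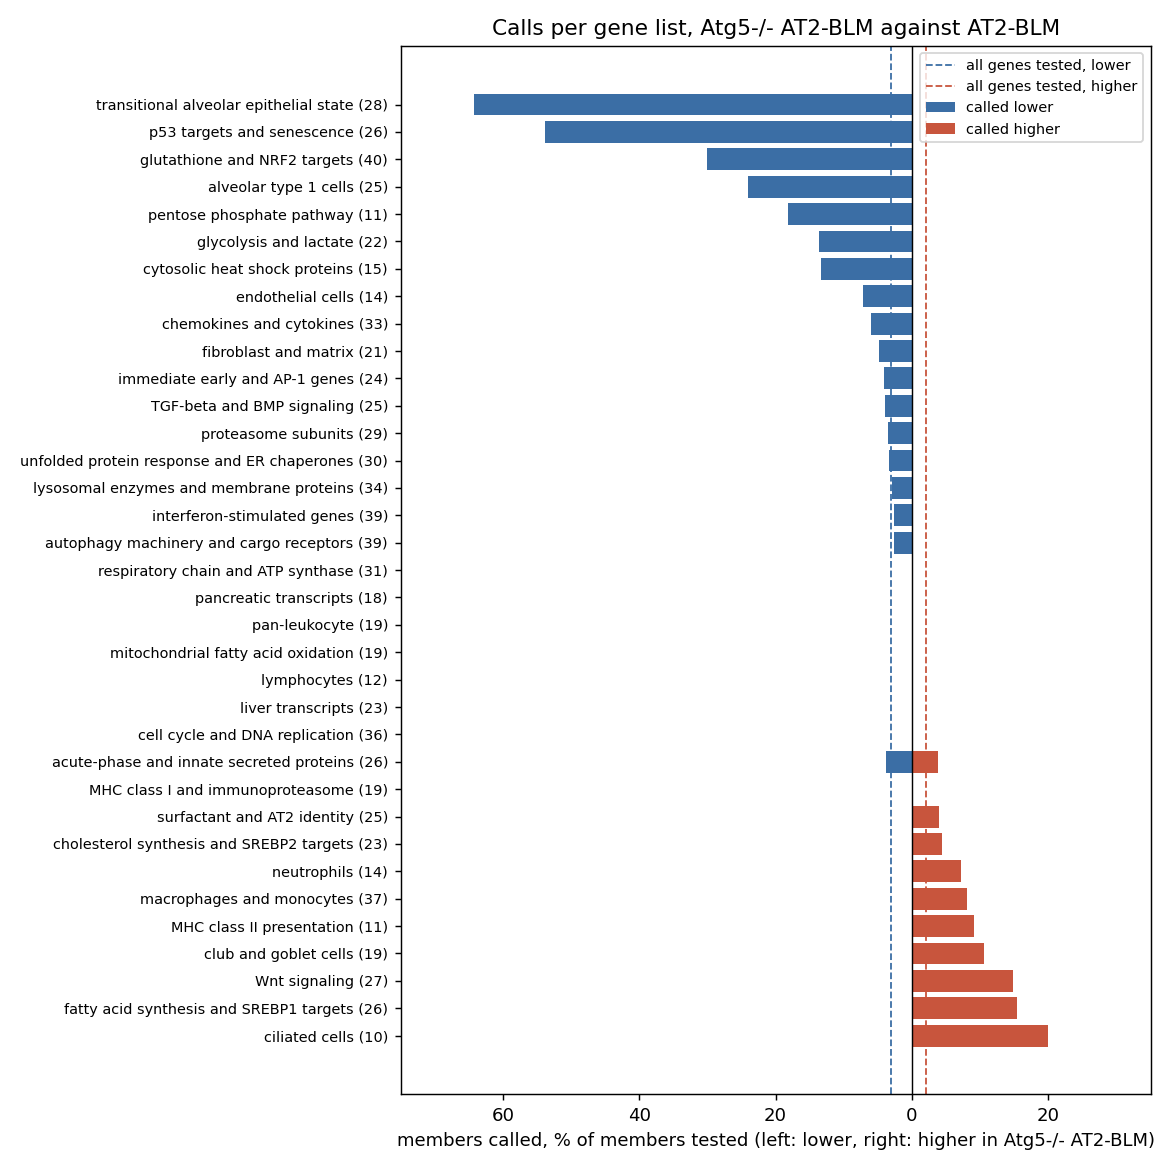
Percent of tested members called lower (left, blue) and higher (right, red) in Atg5-/- AT2-BLM for each gene list with at least 10 tested members, whose number is in brackets; dashed lines mark all genes tested (3.12% lower, 2.04% higher). The transitional state (18 of 28), p53 (14 of 26) and glutathione (12 of 40) lists have the longest bars to the left. The lists were chosen with earlier results of these data known.

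Targets of p53 were lower in Atg5-/- AT2-BLM, from cell cycle inhibitors to genes of apoptosis. Phlda3 (chr1:137662696-137665713 of mm9), a p53-induced inhibitor of Akt signaling, was at 166, 135 and 155 FPKM in AT2-BLM replicates 1 to 3 and at 44.6, 64.9 and 54.2 FPKM in the Atg5-/- libraries. The groups did not overlap, and the difference was -1.47 (SE 0.21), a 2.78-fold fall, with an adjusted limma p of 0.0652. Ccng1 (chr11:40562054-40568813), a cyclin that takes part in p53 feedback, was at 132, 149 and 125 FPKM against 64.2, 46.3 and 72.2 FPKM. It fell by 1.16 (SE 0.18), again with groups apart and an adjusted limma p of 0.0652. Aen, a nuclease induced in apoptosis, was at 22.97, 22.3 and 21.7 FPKM against 11.4, 10.2 and 15.3 FPKM, a difference of -0.83 (SE 0.18). These 3 genes had the smallest p of the list, and no library of one group reached the other.

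Cdkn1a (chr17:29227924-29237667), which encodes the cell cycle inhibitor p21 and belongs to the transitional list as well, was at 303, 238 and 276 FPKM in AT2-BLM and at 107, 131 and 137 FPKM in the Atg5-/- cells, with a difference of -1.12 (SE 0.36, adjusted limma p 0.607). Gdf15, a secreted stress cytokine, was at 223, 219 and 140 FPKM against 87.6, 97.6 and 56.5 FPKM, a difference of -1.26 (SE 0.38). For both genes every Atg5-/- AT2-BLM library lay below every AT2-BLM library. Of the pro-apoptotic members, Pmaip1 was at 1.03, 0.950 and 6.19 FPKM against 0, 0.313 and 0.611 FPKM, a difference of -1.25 (SE 0.41). Bax was at 19.7, 16.96 and 20.4 FPKM against 9.49, 17.8 and 13.5 FPKM, with overlapping groups and a difference of -0.49 (SE 0.19). The death receptor gene Fas was at 8.77, 6.46 and 6.26 FPKM against 2.51, 5.60 and 5.43 FPKM and fell by 0.61 (SE 0.25), with Atg5-/- AT2-BLM replicate 1 the lowest.

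The remaining called members were Sesn2, Mdm2, Tnfrsf10b, Perp, Gadd45a and Plk2, with differences from -0.55 for Gadd45a to -0.87 for Plk2. Mdm2, which drives p53 degradation, had overlapping groups, at 5.02, 6.69 and 8.56 FPKM against 3.95, 2.94 and 5.02 FPKM. Trp53, the p53 gene itself, was at 13.8, 15.4 and 19.0 FPKM against 11.1, 13.2 and 11.6 FPKM and missed the fold threshold at -0.39 (SE 0.16, unadjusted limma p 0.0308). The list holds senescence genes as well as p53 targets. Among its uncalled members, Bbc3 and Btg2 had differences of -0.12 (SE 0.24) and -0.06 (SE 0.43), and Lmnb1 and Gadd45g lay above 0, at 0.24 (SE 0.25) and 0.11 (SE 0.33). In all, 24 of 26 tested members were lower, with a median of -0.58, and 3 of the 29 members of the list were not tested.

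Phlda3, Ccng1, Aen, Gdf15, Cdkn1a and Pmaip1 kept their calls in each of the 6 fits that left out 1 library, though Pmaip1 lay at -0.63 without AT2-BLM replicate 3. Without AT2-BLM replicate 3, 10 of the 14 were still called, and Perp, Mdm2, Tnfrsf10b and Bax were not, at -0.40 to -0.62. Leaving out any 1 library kept 10 to 12 of the 14. Without Atg5-/- AT2-BLM replicate 1, Bax, Fas and Tnfrsf10b were not called, at -0.27 to -0.36. Scaling to Cdh1 left 7 called. The median of the list was -0.47 between libraries without Y-linked transcripts and -0.61 between libraries with them, against -0.01 and -0.13 for all genes tested.

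**Figure D2:**
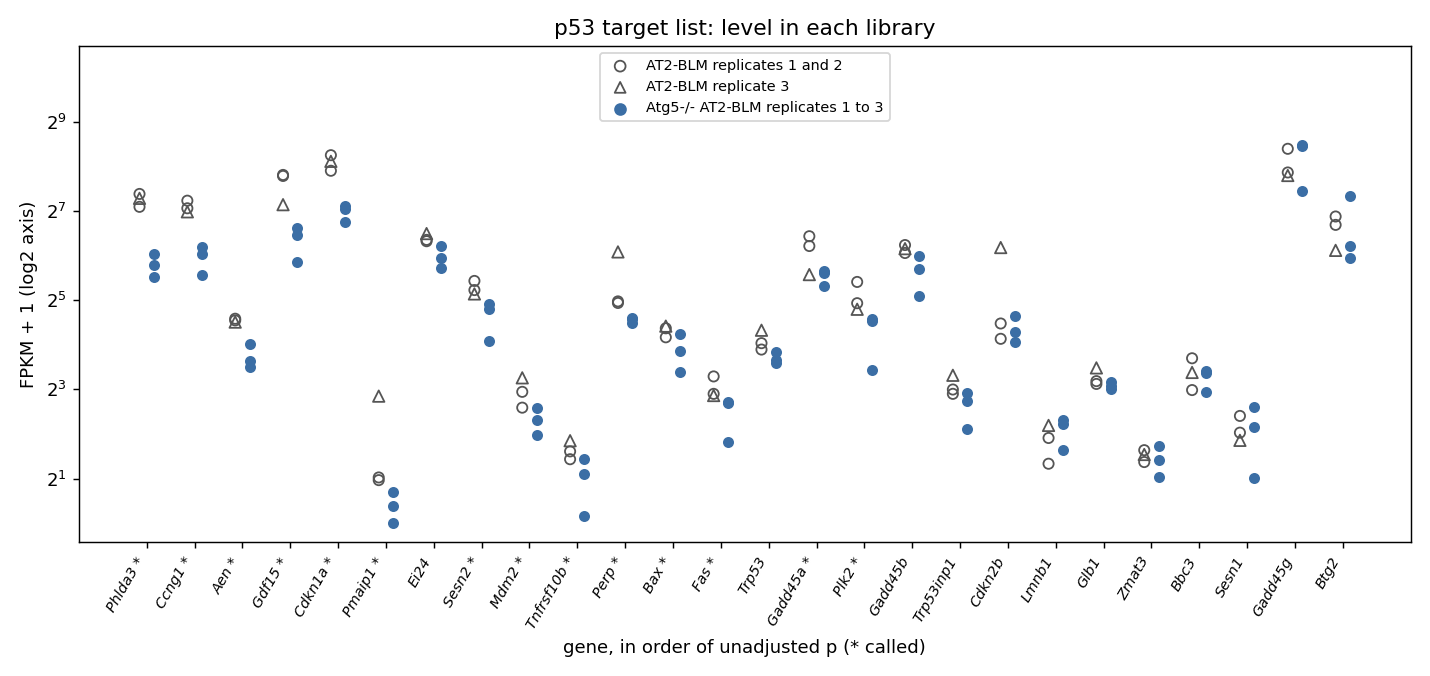
FPKM + 1 (log2 axis) of the 26 tested p53 target and senescence genes in each library, in order of p. Open circles and the triangle are AT2-BLM, with the triangle for replicate 3, and filled circles are Atg5-/- AT2-BLM. For Phlda3, Ccng1, Aen, Gdf15 and Cdkn1a all filled points lie below all open points, and the triangle lies among or below the open circles.

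Promoters were searched for a pair of p53 half-site cores (CATG, then any 6 bases, then CATG), which reads the same on both strands, in the 250 bases before the transcription start (RefSeq, GRCm38.p6). This motif was chosen after the calls were known. It was present in 1 of 26 promoters of the 20 tested list members that could be matched, a promoter of Cdkn1a. It was in 0.490% of the 32851 promoters of all genes. The window of the other Cdkn1a promoter, chr17:29093519-29093768 of GRCm38.p6, holds no match. The Cdkn1a stretch is shown because it is the called p53 target with a window that holds the pair. The stretch lies on chr17:29090886-29090978 of GRCm38.p6, plus strand. Capitals mark the match, which starts 48 bases before the transcription start of that promoter.
Cdkn1a: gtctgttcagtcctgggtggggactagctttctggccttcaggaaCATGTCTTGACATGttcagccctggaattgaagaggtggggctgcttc
A match is a description of the sequence and not a measured binding site.

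Genes of the transitional state were also lower. Cldn4 (chr5:135420996-135422804 of mm9), a claudin of the tight junction, was at 68.7, 52.9 and 228 FPKM in AT2-BLM and at 6.43, 21.5 and 14.6 FPKM in the Atg5-/- libraries, a fall of 2.79 (SE 0.61). Krt8 was at 565, 566 and 1266 FPKM against 255, 480 and 478 FPKM, a difference of -0.93 (SE 0.34). Anxa1, an annexin that limits inflammation, was at 498, 521 and 1062.5 FPKM against 126, 369 and 367 FPKM, a difference of -1.33 (SE 0.44). In each of these genes the groups did not overlap, AT2-BLM replicate 3 was the highest library and Atg5-/- AT2-BLM replicate 1 the lowest.

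The epithelial integrin subunit Itgb6, which activates latent TGF-beta, was at 8.98, 9.20 and 17.8 FPKM against 6.46, 6.70 and 6.06 FPKM and fell by 0.75 (SE 0.23). Tnip3, an inhibitor of NF-kB signaling, was at 3.50, 3.12 and 7.82 FPKM against 0.867, 1.87 and 1.14 FPKM and fell by 1.28 (SE 0.28). Plaur, the urokinase receptor, was at 9.50, 13.1 and 48.8 FPKM against 3.19, 9.18 and 7.42 FPKM, a difference of -1.45 (SE 0.52). The YAP target genes Cyr61 and Ctgf were also called lower, at -1.73 (SE 0.67) and -1.499 (SE 0.59), the latter with overlapping groups. The other called members were the keratins Krt7, Krt18 and Krt19, with Lgals3, F3, Ndrg1, Sprr1a, Tnfrsf12a, Sfn and Cdkn1a, at differences from -0.82 for Krt18 to -1.81 for Sprr1a.

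The 10 members that were not called included Clu, at 1219.5, 1092 and 400 FPKM against 552, 564 and 540 FPKM, Nupr1, with a difference of -0.07 (SE 0.20), and Sox4, the only member above 0, at 0.17 (SE 0.58). The median of the 28 tested members was -1.06. The summed FPKM of the whole list was 5289 to 8890 in AT2-BLM and 2741 to 4207 in Atg5-/- AT2-BLM, without overlap. In bulk RNA fewer cells in such a state and less of these transcripts per cell cannot be told apart.

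These counts rested on few libraries. AT2-BLM replicate 3 was the highest AT2-BLM library for 17 of the 18 called members. Without it 27 of 28 members were still lower, with a median of -0.70, but of the 18 genes only Cldn4, Tnip3 and Cdkn1a were still called, and the other 15 lay between -0.40 for Krt19 and -1.32 for Sprr1a. Without Atg5-/- AT2-BLM replicate 1, 5 of the 18 were called and the median was -0.73. Scaling to Cdh1 left 4 called with a median of -0.89. Within libraries without Y-linked transcripts the median was -1.29, with 27 members lower, and within those with them it was -1.49, with 26 lower. The first set has Atg5-/- AT2-BLM replicate 1 alone of its group and the second has AT2-BLM replicate 3 alone of its group.

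**Figure D3:**
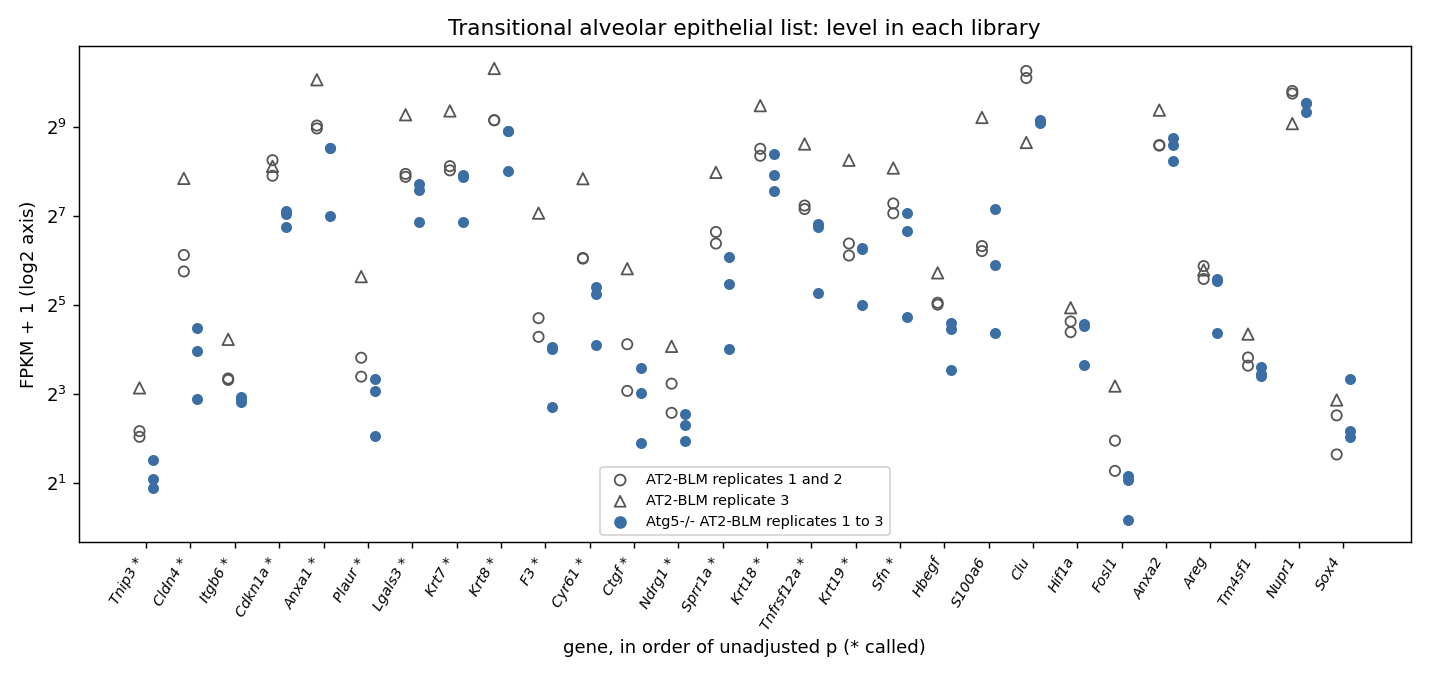
FPKM + 1 (log2 axis) of the 28 tested transitional state genes in each library, in order of p; symbols are as in the plot of p53 targets. The triangle (AT2-BLM replicate 3) is the highest point for nearly all called genes, and the open circles mostly lie above the filled points.

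Called AT1 genes were all lower. Hopx, a homeodomain protein of AT1 cells, was at 16.8, 10.3 and 24.2 FPKM against 9.73, 9.43 and 7.67 FPKM, a difference of -0.79 (SE 0.28). Cav1, the main caveolae coat gene, was at 15.8, 15.8 and 38.5 FPKM against 12.1, 11.8 and 15.3 FPKM, a difference of -0.68 (SE 0.30). With Cav2, Gprc5a, Pxdc1 and Timp3, 6 of 25 tested AT1 genes were called lower, and 23 were lower with a median of -0.39. Without AT2-BLM replicate 3, 16 were lower with a median of -0.20, and after scaling to Cdh1 18 were lower with a median of -0.21 and none was called. AT2-BLM replicate 3 was the highest library for all 6, none of the 6 was called without it (-0.26 to -0.56), and 1 of the 6, Hopx, was called without Atg5-/- AT2-BLM replicate 2 (the other 5 at -0.36 to -0.83). Ager, at 1482 to 1882 FPKM against 1474 to 1636 FPKM, had a difference of -0.11 (SE 0.16). The median of the list was -0.12 between libraries without Y-linked transcripts and -0.99 between those with them.

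**Figure D4:**
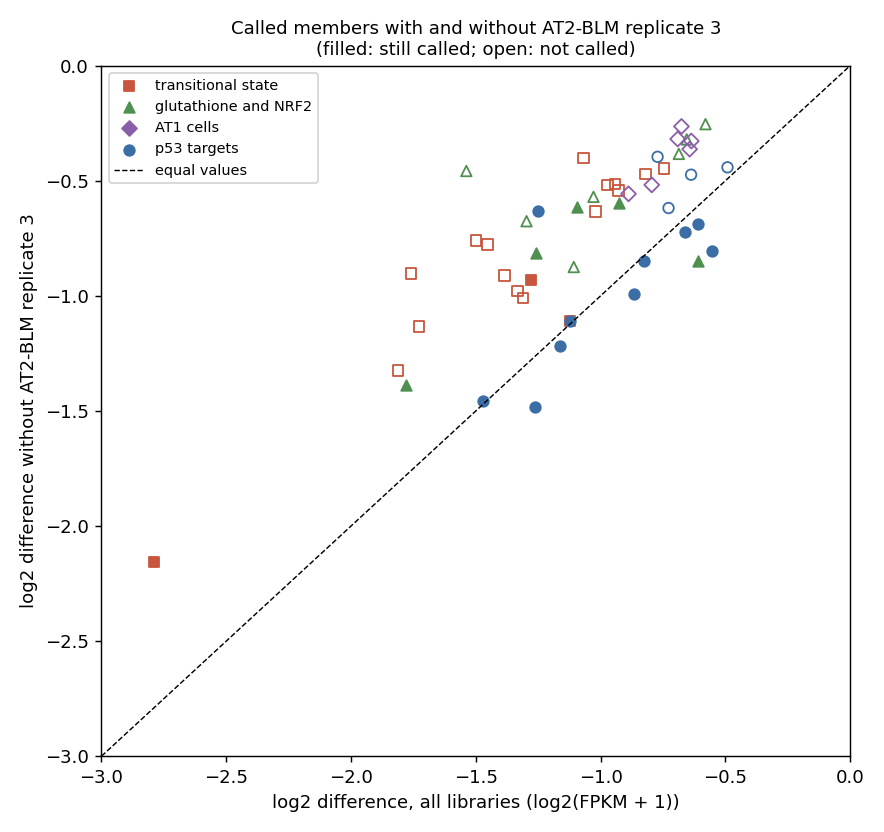
Difference of each called member of 4 lists without AT2-BLM replicate 3 (vertical, log2 scale) against the difference with all libraries (horizontal); filled symbols are still called. Of the p53 targets 10 of 14 are filled, with Pmaip1 (-1.25 to -0.63) and Perp (-0.77 to -0.40) well above the line of equal values, and most transitional state, glutathione and AT1 genes lie above it as open symbols.

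NRF2 is the transcription factor that induces glutathione and detoxification enzymes under oxidative stress. Srxn1, which reduces oxidized peroxiredoxins, was at 59.2, 69.3 and 163 FPKM in AT2-BLM and at 35.7, 33.2 and 39.4 FPKM in the Atg5-/- libraries, a fall of 1.26 (SE 0.36). Nqo1, a quinone reductase, was at 15.5, 14.9 and 42.8 FPKM against 10.8, 11.3 and 7.16 FPKM, a difference of -1.09 (SE 0.33). Gpx2, an epithelial glutathione peroxidase, was at 62.1, 61.9 and 123 FPKM against 30.8, 50.0 and 43.3 FPKM, a difference of -0.92 (SE 0.30). None of these groups overlapped.

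The glutathione transferase gene Gsta2 was at 3.36, 2.85 and 8.32 FPKM against 0.180, 1.91 and 0.122 FPKM and fell by 1.78 (SE 0.52). Its paralogs are similar in sequence, so reads may be shared between Gsta1 and Gsta2. Gss, the second enzyme of glutathione synthesis, fell by 0.69 (SE 0.25), while Gclc and Gclm, the subunits of the first, had differences of 0.50 (SE 0.68) and -0.37 (SE 0.54) and were not called. The other called members were Ephx1, Gstm5, Prdx6, Cbr3, Gsto1, Gsta1 and Gsta4, at -0.58 to -1.54. Nfe2l2, the NRF2 gene, was at 216, 203 and 159 FPKM against 121, 138 and 144 FPKM, with groups apart and a difference of -0.51 (SE 0.27) that was not called, and Hmox1 had one of -0.33 (SE 0.20). In all, 33 of 40 tested members were lower, with a median of -0.35.

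Srxn1, Gsta2, Nqo1 and Gpx2 were called in all 6 fits with 1 library left out, though Srxn1, Nqo1 and Gpx2 lay at -0.81, -0.61 and -0.60 without AT2-BLM replicate 3. Without AT2-BLM replicate 3, 5 of the 12 were called and the median was -0.24. The other 7 lay between -0.25 for Gsta4 and -0.87. Without Atg5-/- AT2-BLM replicate 1, 5 of the 12 were also called, and the other 7 lay between -0.46 and -1.38. After scaling to Cdh1 3 were called. Within libraries of like Y-linked status the medians were -0.39 and -0.46.

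The antioxidant response element that NRF2 binds was searched as TGACNNNGC on both strands in the same promoter windows. It was in 9 of 40 promoters of the matched list members (22.5%), in 1 of 10 promoters of those called and in 10.2% of all promoters. The Gstm5 promoter is shown as the called member that holds it, chr3:107895767-107895853 of GRCm38.p6, plus strand, with the element in capitals 42 bases before the start.
Gstm5: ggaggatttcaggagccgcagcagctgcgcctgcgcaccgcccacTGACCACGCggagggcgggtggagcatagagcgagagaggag

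Genes of fatty acid synthesis and targets of SREBP1, which form 1 list, had calls in the other direction. Gpam, which starts triglyceride synthesis at the mitochondrion, was at 9.73, 9.22 and 9.45 FPKM in AT2-BLM and at 23.1, 15.5 and 14.6 FPKM in the Atg5-/- libraries, a rise of 0.81 (SE 0.21). Acaca, acetyl-CoA carboxylase, was at 2.87, 2.39 and 2.01 FPKM against 6.12, 5.43 and 3.38 FPKM, a rise of 0.78 (SE 0.25). In both genes the groups were apart, and both were called in all 6 fits with 1 library left out. Mlxipl, the carbohydrate-responsive factor ChREBP, was at 0.494, 0.453 and 0.271 FPKM against 1.63, 1.31 and 0.662 FPKM, with a difference of 0.62 (SE 0.22), and 0.48 without Atg5-/- AT2-BLM replicate 1, where it was not called. Fasn rose by 0.56 (SE 0.22) with overlapping groups, and was not called when AT2-BLM replicate 1 (0.56) or 2 (0.49) was left out, nor when Atg5-/- AT2-BLM replicate 2 (0.47) or 3 (0.40) was.

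The median of the whole list depended on the libraries and the scaling. Its 26 tested members had a median of 0.11, with 19 higher, and the median was -0.00104 without Atg5-/- AT2-BLM replicate 1 and 0.03 without AT2-BLM replicate 3. It was 0.27 without Atg5-/- AT2-BLM replicate 2, 0.28 when scaled to Cdh1, 0.25 when Y-linked status was a covariate and 0.23 after quantile normalization, and within libraries of like Y-linked status it was 0.25 and 0.23. Acly, Fads1, Fads2 and Fads3 had differences of 0.28 (SE 0.27), 0.18 (SE 0.27), 0.12 (SE 0.24) and -0.24 (SE 0.22), none of them called. The sign of Acly, Fads1 and Fads2 turned without Atg5-/- AT2-BLM replicate 1 and that of Fads1, Fads2 and Fads3 without AT2-BLM replicate 3. A sterol element, TCACNCCAC on both strands, was in 1 of 6 promoters of the 4 called genes of the list and in 1.05% of all promoters. It lies in 1 of the promoters of Mlxipl, chr5:135106710-135106808 of GRCm38.p6, plus strand, with the element in capitals 136 bases before the start.
Mlxipl: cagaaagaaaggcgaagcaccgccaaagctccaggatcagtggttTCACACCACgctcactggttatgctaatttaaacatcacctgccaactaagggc

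Genes of glucose metabolism had 5 calls, all lower, and none of the 5 was called without AT2-BLM replicate 3. Of 22 tested glycolysis genes Eno1, Pgam1 and Pkm were called lower, and of 11 tested pentose phosphate genes G6pdx and Taldo1. Eno1, enolase, was at 122, 144 and 301 FPKM against 36.1, 105 and 109 FPKM. Without AT2-BLM replicate 3 the 3 glycolysis genes lay at -0.18 to -0.82 and the 2 pentose phosphate genes at -0.27 and -0.43. Without Atg5-/- AT2-BLM replicate 1 the 3 glycolysis genes were not called either, at -0.43 to -0.70, nor was Taldo1, at -0.35. G6pdx was not called without Atg5-/- AT2-BLM replicate 2, at -0.43. After scaling to Cdh1 none of the 5 was called, and the glycolysis median moved from -0.27 to -0.12.

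Wnt pathway genes with calls were all higher. Tcf7l1, a repressor of Wnt targets, was at 1.96, 1.70 and 2.30 FPKM in AT2-BLM and at 5.03, 5.38 and 3.58 FPKM in the Atg5-/- libraries, a rise of 0.91 (SE 0.24). Apc, a scaffold of the complex that degrades beta-catenin, was at 2.22, 1.98 and 2.82 FPKM against 4.44, 4.70 and 3.32 FPKM, a rise of 0.62 (SE 0.18). Znrf3 and Rnf43, ubiquitin ligases that remove Wnt receptors, rose by 0.59 (SE 0.23) and 0.57 (SE 0.26). The groups were apart for all 4 genes, each known as a negative regulator of the pathway. Tcf7l1 and Apc were called in all 6 fits with 1 library left out. Without Atg5-/- AT2-BLM replicate 1, Znrf3 (0.40) and Rnf43 (0.33) were not called, nor were they without AT2-BLM replicate 2, at 0.53 and 0.63, and Rnf43 was not called without AT2-BLM replicate 1 (0.51) or 3 (0.57). The median of the 27 tested members was 0.24, with 21 higher. It was 0.10, with 18 higher, without Atg5-/- AT2-BLM replicate 2 and 0.40 after scaling to Cdh1, and within libraries of like Y-linked status it was 0.24 and 0.17.

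Ear10 (chr14:44500385-44501224 of mm9), a ribonuclease gene of the eosinophil-associated family that macrophages also express, was listed at 0, 0 and 0.579 FPKM in AT2-BLM and at 2.92, 6.65 and 8.30 FPKM in the Atg5-/- libraries. The groups were apart, with a difference of 2.49 (SE 0.31) and an adjusted limma p of 0.0367. Ear10 reached an FPKM of 1 only in Atg5-/- libraries. It thus passed the filter through the genotype where it is high, so this separation is not independent support. Its family is multigene, so reads may be split between near copies. Over the other settings and left-out libraries the adjusted p ran from 0.00286 to 0.386. Among the genes whose log2 values were most like it over the 6 samples were Ylpm1 and Kat6a, with Pearson r of 0.9974 and 0.9856 (n = 6).

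Macrophage transcripts were measured beside it. Of 37 tested macrophage and monocyte genes 31 were higher, with a median of 0.47, and Ear10, Itgax and Krt79 were called. Like Ear10, Itgax and Krt79 passed the filter only through Atg5-/- libraries. Itgax, the CD11c gene, was at 0.0683, 0.815 and 0.158 FPKM against 0.269, 1.38 and 2.40 FPKM, with overlapping groups, and without Atg5-/- AT2-BLM replicate 3 it was at 0.41 and not called. Krt79 was called in 1 of the 6 fits with 1 library left out, and was at 0.44 without AT2-BLM replicate 2. The summed FPKM of the list was 1024 to 2531 in AT2-BLM and 1778 to 2782 in Atg5-/- AT2-BLM. The defining markers Marco, Csf1r and Mrc1 were at 0.0362 to 6.42 FPKM in the 6 libraries and were not called, and Ptprc, the CD45 gene excluded by the sort, was at 0.706 to 2.64 FPKM. Between libraries without Y-linked transcripts the median of the list was -0.33, and between libraries with them it was 0.92, so its direction differed between these sets. Ear10 was higher in both, by 1.97 and 2.42. The part of macrophage RNA in the Ear10 difference was not tested.

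Most of the other large rises belonged to no list. Bcan, a proteoglycan gene best known from brain, was at 1.04, 1.05 and 0.925 FPKM in AT2-BLM and at 4.71, 2.78 and 3.51 FPKM in the Atg5-/- libraries, a rise of 1.20 (SE 0.19) with an adjusted limma p of 0.0652. Met, the receptor for hepatocyte growth factor, was at 5.37, 5.02 and 3.94 FPKM against 20.5, 9.28 and 11.3 FPKM, a rise of 1.28 (SE 0.29). Cap1, a regulator of actin turnover, was at 2.18, 1.35 and 4.30 FPKM against 10.5, 9.44 and 15.002 FPKM, a rise of 1.86 (SE 0.62). In these genes no library of one group reached the other. They kept their calls in all 6 fits with 1 library left out. Cap1 also varied widely within a group, at 1.76, 5.42 and 20.2 FPKM in AT2 libraries of Atg5 f/f mice given PBS.

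Cst8, of the cystatin family, was at 5.66, 4.24 and 6.06 FPKM against 18.1, 23.8 and 7.58 FPKM and rose by 1.35 (SE 0.30). Pttg1, the securin gene, was at 2.90, 4.73 and 3.48 FPKM against 7.10, 14.1 and 7.67 FPKM and rose by 1.14 (SE 0.24), while none of 36 tested cell cycle genes was called. Mybph, Bpifb5, Gm2663, Ifitm6, Tbc1d30 and Dynlrb2 completed the 12 largest rises with groups apart, at 1.11 to 1.51. Bpifb5 lay at 0.78 without AT2-BLM replicate 3. Gm2663, which passed the filter only through Atg5-/- libraries, lay at 0.80 without the second Atg5-/- AT2-BLM library. Ifitm6 lost its call without AT2-BLM replicate 3 (1.33) and likewise without the second Atg5-/- AT2-BLM library (1.37), as did Tbc1d30 without Atg5-/- AT2-BLM replicate 1 (0.81). Dynlrb2, a dynein light chain gene of ciliated cells, was at 24.4, 23.1 and 13.5 FPKM against 62.6, 43.2 and 30.9 FPKM. Foxj1, which defines ciliated cells, was at 0 to 0.171 FPKM.

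Of the 12 largest falls with groups apart, Ivl, Anxa8, Fam46b and Psca (-1.62, SE 0.51) were among those in no list. Ivl, involucrin of the cornified envelope, was at 7.65, 6.403 and 16.2 FPKM against 1.84, 0.0316 and 3.75 FPKM, a difference of -2.10 (SE 0.70), and was not called without Atg5-/- AT2-BLM replicate 2, at -1.49. Anxa8 was at 3.06, 3.67 and 16.9 FPKM against 0.388, 1.26 and 1.34 FPKM, and Fam46b at 10.4, 10.4 and 31.0 FPKM against 0.822, 4.96 and 4.74 FPKM. Anxa8, Fam46b and Psca were called in all 6 fits with 1 library left out. Without AT2-BLM replicate 3 they lay at -1.16, -1.52 and -0.89. Msln, the mesothelin gene, was at 1.58, 9.06 and 56.0 FPKM against 0.888, 1.23 and 0.923 FPKM, a difference of -2.50 (SE 0.85), and was not called without AT2-BLM replicate 3, at -1.34. It and Upk3b were the 2 tested members of the 8 mesothelial genes, whose summed FPKM was 1.71 to 63.0 in AT2-BLM and 0.938 to 1.69 in Atg5-/- AT2-BLM.

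Single calls fell in many other lists. As 5.16% of all genes tested were called, they are given as single genes and not as results about their lists. Myc, a growth-promoting transcription factor, was at 6.74, 5.46 and 19.5 FPKM against 3.34, 1.37 and 3.43 FPKM with a difference of -1.498 (SE 0.45), and -0.98 without AT2-BLM replicate 3. Relb, of the noncanonical NF-kB pathway, was at 12.9, 11.5 and 11.5 FPKM against 8.33, 5.36 and 6.44 FPKM and fell by 0.77 (SE 0.22). Both had groups apart and were called in all 6 fits with 1 library left out. Hc, the complement C5 gene, was the called member of 25 tested surfactant and AT2 genes, at 177, 185 and 90.5 FPKM against 426, 202 and 285 FPKM, a rise of 1.01 (SE 0.33).

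Sqstm1, which encodes the autophagy cargo receptor p62, was the 1 of 39 tested autophagy genes called, near the share of all genes called lower (3.12%). Sqstm1 was at 521, 508 and 702 FPKM against 385, 355 and 398 FPKM. Its difference was -0.59 (SE 0.26), and it was called in 1 of the 6 fits with 1 library left out, that without AT2-BLM replicate 2, and lay at -0.44 without AT2-BLM replicate 3. Atg5 was not called, with groups apart (8.37 to 8.84 FPKM in Atg5-/- AT2-BLM, 9.97 to 11.1 FPKM in AT2-BLM), with a difference of -0.26 (SE 0.23), and a whole-gene value cannot show the loss of single exons. Neu1, sialidase, was the 1 of 34 lysosomal genes called, again near the share of all genes called lower. It fell by 0.49 (SE 0.14), and was at -0.40 and not called when AT2-BLM replicate 3 was left out, and the same held for Atg5-/- AT2-BLM replicate 2.

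Several lists leaned one way with few calls. All 29 tested proteasome subunits had differences below 0, from -0.11 to -0.62, and Psmb5 alone was called. It lost its call without AT2-BLM replicate 3 (-0.46) and also without the first Atg5-/- AT2-BLM library (-0.50). Of 31 respiratory chain genes 30 were lower with a median of -0.18, and of 39 interferon-stimulated genes 36 were lower with a median of -0.44, with 0 and 1 called. Relative to the AT2-BLM mean, respiratory chain medians were -0.15, -0.03 and 0.16 in AT2-BLM replicates 1 to 3. They were -0.51, 0.02 and -0.15 in Atg5-/- AT2-BLM replicates 1 to 3, so the groups overlapped. The interferon median was -0.22 without AT2-BLM replicate 1 and -0.73 and -0.67 without AT2-BLM replicate 3 and Atg5-/- AT2-BLM replicate 1, and within libraries of like Y-linked status it was -0.28 and -0.12. In the fit of the compared groups alone 7 interferon-stimulated genes were called lower. The 1 interferon-stimulated gene called with all groups in the fit, Cxcl10, a chemokine for T cells, was at 5.44, 4.51 and 12.9 FPKM against 1.58, 2.29 and 2.06 FPKM. It was not called without AT2-BLM replicate 3, at -1.01, or without Atg5-/- AT2-BLM replicate 1, 2 or 3, at -1.32 to -1.49. An interferon element (GAAA, any 2 bases, GAAA, on both strands) was in 14 of 36 promoters of tested interferon-stimulated genes and in 2.98% of all promoters. The Cxcl10 stretch that holds it is on chr5:92349048-92349139 of GRCm38.p6, minus strand, with the element in capitals 213 bases before the start.
Cxcl10: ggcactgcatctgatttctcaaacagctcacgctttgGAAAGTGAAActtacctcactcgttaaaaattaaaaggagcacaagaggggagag

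Transcripts of liver and pancreas varied between libraries of the same group. The summed FPKM of 26 liver transcripts was 506 to 1374 in AT2-BLM and 498 to 1747 in Atg5-/- AT2-BLM, and that of 19 pancreatic transcripts was 30.8 to 71.1 and 15.1 to 443. Neither list had a called member. The median difference of the liver list was -1.28 between libraries without Y-linked transcripts and 1.08 between those with them. Fibroblast and matrix genes summed to 531 to 1094 FPKM and to 381 to 602 FPKM, endothelial genes to 348 to 480 and to 286 to 335, and pan-leukocyte genes to 147 to 265 and to 172 to 395. The endothelial sums did not overlap between groups and were lower in Atg5-/- AT2-BLM, while 11 of the 14 tested endothelial genes were higher, with a median of 0.26 (0.11 and 0.21 within libraries of like Y-linked status). The fibroblast and leukocyte sums overlapped. Their part in the results was not tested.

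Among genes of other lung cells, Cbr2 and Hp were the 2 of 19 tested club cell genes called, both higher, and Dynlrb2 and Tppp3 the 2 of 10 tested ciliated cell genes. Cbr2, a carbonyl reductase, was at 0.91 (SE 0.39) with all libraries and at 0.33, not called, without AT2-BLM replicate 3, and Hp, haptoglobin, was at 0.70 and then at 0.24. The fibroblast gene Dcn and the endothelial gene Ly6c1 were each the 1 called member of their list, both lower. Dcn was at -1.10 and lost its call in 4 of the 6 fits with 1 library left out, at -0.87 and -0.86 when AT2-BLM replicate 2 or 3 was left out and at -1.04 and -1.01 when replicate 2 or 3 of Atg5-/- AT2-BLM was. Ly6c1 was at -0.81, and without AT2-BLM replicate 3 it was at -0.46 and not called, nor was it called without Atg5-/- AT2-BLM replicate 1. It ran against its list, most of whose tested genes were higher. G0s2, an inhibitor of triglyceride lipase and the 1 called of 14 neutrophil genes, was at 7.14, 6.89 and 6.68 FPKM against 11.1, 16.8 and 18.4 FPKM, a rise of 1.03 (SE 0.23) with groups apart. None of 19 fatty acid oxidation genes, 19 pan-leukocyte genes or 19 MHC class I genes was called. Of the pan-leukocyte genes 17 were higher, with a median of 0.50. That median was -0.39 between libraries without Y-linked transcripts and 0.96 between those with them. Of 11 tested MHC class II genes 10 were higher, with a median of 0.64 (0.44 and 1.27 within libraries of like Y-linked status). H2-Oa, the 1 called, reached an FPKM of 1 only in Atg5-/- libraries.

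The same genotypes were compared with PBS in the other 6 libraries, 3 of Atg5-/- AT2-PBS and 3 of AT2-PBS, which share no sample with the BLM comparison. No day is named in the methods for the Atg5-/- PBS mice. With PBS 2058 genes (19.3%) were called, and 158 were called in both comparisons, which is 28.7% of the BLM calls and 7.68% of the PBS calls. Of these, 80 were lower with BLM and higher with PBS, 31 the reverse, 38 higher in both and 9 lower in both. The limma interaction, the BLM difference minus the PBS difference, passed an adjusted p of 0.05 for 138 of the 551 genes (25.0%), and for 7.89% of all genes tested. The BLM difference that selected the 551 genes is part of the interaction, so this share is not independent of the calls.

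Phlda3 differed by -1.47 with BLM and by 2.03 with PBS, an interaction of -3.50 (adjusted limma p 0.000176). Of the 14 called p53 targets 7 had such an interaction, as did 9 of the 12 called glutathione and NRF2 targets and 4 of the 18 called transitional state genes. Every one of these was negative, but a call lower with BLM itself moves the interaction down. Plaur differed by -1.45 with BLM and by 4.48 with PBS. Other transitional genes were lower with both treatments, among them Krt8 (-0.93 with BLM, -0.82 with PBS) and Sprr1a (-1.81 and -2.23). With PBS 5 tested transitional genes were called higher and 4 lower, and the median of the list was 0.09. Positive interactions were found for Bcan (1.20 with BLM, -1.44 with PBS), Met (1.28 and -0.80) and Gpam (0.81 and -0.65). In the PBS comparison 34 of 37 macrophage genes, 18 of 19 pan-leukocyte genes and 22 of 23 liver genes were called higher, and all Atg5-/- AT2-PBS libraries lacked Y-linked transcripts, so an interaction carries these differences of the PBS libraries as well. Their part was not tested.

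**Figure D5:**
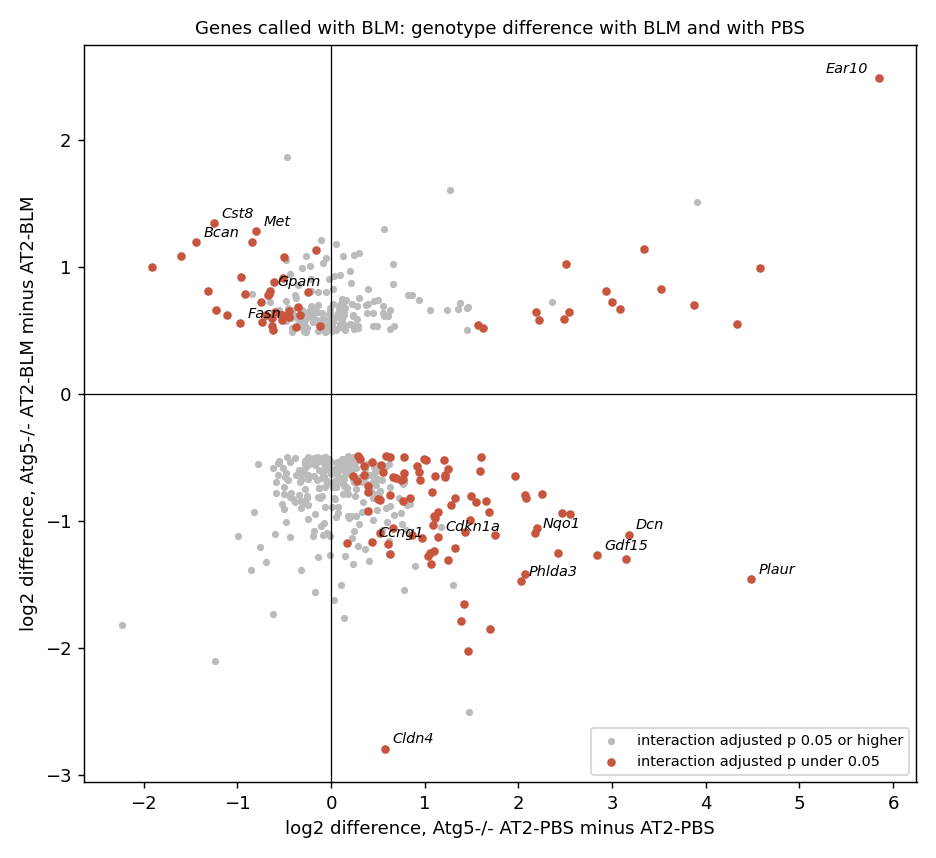
Each of the 551 genes called with BLM, by its log2 difference between genotypes with PBS (horizontal) and with BLM (vertical); red marks an interaction at an adjusted limma p under 0.05 (138 genes). Phlda3, Gdf15, Cdkn1a and Nqo1 lie at the lower right, lower with BLM and higher with PBS, and Bcan, Met and Cst8 at the upper left.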

How the data were processed

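RNA of 12 libraries from sorted AT2 cells, 4 groups of 3, had been sequenced. The authors deposited FPKM per gene, with gene names, for all samples in 1 table. Their methods name Trimmomatic, STAR with mm9, Cufflinks and a DESeq normalization, while the submitters' processing notes list HISAT2 2.2.1.0, Trimmomatic 0.36, Cufflinks 2.2.1 and HTSeq 0.9.1, so the aligner is not settled and the deposited FPKM may or may not include the DESeq step. No read counts were used, so the depth is unknown and no counting interval is given. FPKM summed to 395859 to 549169 in the 6 BLM libraries. Of the gene names, 27 had been turned into dates and were kept.

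Log2(FPKM + 1) of all 12 libraries was fitted in 1 limma 3.58.1 model (R 4.3.3, eBayes with trend). Benjamini-Hochberg adjustment ran over all genes tested. The test was tried on simulated data. Gene positions were taken from GENCODE for mm9, and promoter sequences are RefSeq GRCm38.p6. Each list was described by counts and its median. The members, the 40 lists and the tests were chosen with earlier results of these data known.

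Named genes were Atg5, the genes the study measured by qPCR, the surfactant genes, those with an adjusted p under 0.05, the 12 largest rises and falls with groups apart, up to 4 called members per list and direction by p, the most abundant members of cell type lists or of lists without a call, defining markers, and sex-linked and gated genes. Further called members of the p53, transitional, glutathione and AT1 lists, uncalled list members, Gapdh and the p53 half-site pair were chosen after their values were seen. Some genes that the rule names are not reported here. Alternatives were another pseudocount, filter, scaling, fit, threshold, a replicate block, left-out libraries and, added after seeing the data, Y-linked expression as a covariate. Figures used matplotlib 3.10.9.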

Additional observations from a re-analysis of the deposited data

Results flagged for a closer look

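Of the 73 named genes called with BLM, 35 had a genotype difference that differed between BLM and PBS by the limma interaction at an adjusted p under 0.05, 25 with a negative and 10 with a positive value on the log2 scale. The genes were selected by the BLM difference, which is part of the interaction, so these counts are not independent of the calls. Outlying libraries were not tested, since each group has 3. The negative values were -4.28 for Dcn, -4.10 for Gdf15, -3.78 for Krt79, -3.54 for Anxa8, -3.50 for Phlda3, -3.48 for Cxcl10, -3.48 for Fam46b, -3.37 for Cldn4, -3.36 for Ear10, -3.27 for Nqo1, -3.17 for Gsta2, -2.61 for Gpx2 and -2.53 for Eno1. They were -2.50 for Slpi, -2.27 for Cdkn1a, -2.26 for Itgax, -2.14 for Ly6c1, -1.89 for Srxn1, -1.85 for Relb, -1.59 for Ccng1, -1.50 for Taldo1, -1.48 for G0s2, -1.43 for Hopx, -1.33 for Aen and -0.78 for Neu1. Of these, Krt79, Ear10, Itgax and G0s2 were higher in Atg5-/- cells with both treatments and by less with BLM.

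The positive values were 0.96 for Apc, 1.29 for Pttg1, 1.31 for Rnf43, 1.42 for Tcf7l1, 1.46 for Gpam, 1.53 for Fasn, 2.04 for Bpifb5, 2.08 for Met, 2.60 for Cst8 and 2.64 for Bcan. Each was higher with BLM and lower with PBS in Atg5-/- cells.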

How the results depend on the processing

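Counts of genes called were 218 higher, 333 lower and 1 with an adjusted p under 0.05. They became 124, 215 and 2 with FPKM of at least 5, 355, 90 and 0 with scaling to Cdh1, 26 higher and 75 lower at a fold of at least 2, and 1 and 0 when the adjusted p was required. The count with an adjusted p was 0 with a pseudocount of 0.1 and with only the compared groups, 2 with no filter and with quantile normalization, and 3 with the Y-linked covariate, where 507 were lower. Leaving out 1 library gave 206 to 348 higher, 149 to 500 lower and 0 to 1 with an adjusted p. The interaction count of 842 was 448 and the PBS count of 2058 was 1169 with FPKM of at least 5, and the PBS count was 1195 at an adjusted p and 1113 at a fold of at least 2. With a replicate block 228 genes were higher, 330 lower and 0 passed the adjustment. The labels do not say whether replicate numbers pair the libraries. Deviations of same-numbered libraries correlated at 0.05, -0.16 and 0.11, within the range of the other pairs (-0.20 to 0.13). With 3 libraries per group this cannot settle the pairing. Over the fits with 1 library left out, differences ran from -0.0052 to 0.58 for Acly, -0.16 to 0.41 for Fads1, -0.18 to 0.30 for Fads2, -0.41 to 0.022 for Fads3, -0.037 to 0.51 for Sftpa1 and -0.14 to 0.32 for Sftpd. The sign turned without AT2-BLM replicate 3 for Fads1 (-0.059), Fads2 (-0.065), Fads3, Sftpa1 and Sftpd, and without Atg5-/- AT2-BLM replicate 1 for Acly, Fads1 and Fads2, and none of these was called with all libraries. The cause was not tested. Of the 73 named called genes 41 kept their call without AT2-BLM replicate 3, 45 with scaling to Cdh1 and 65 with the block. None of the 73 changed sign under any alternative or left-out library. Where groups do not overlap, leaving out a library cannot turn the sign, so for such genes this was fixed by their selection. Between libraries without Y-linked transcripts 3 of the 73 changed sign, Itgax (-0.13), Hp (-0.01) and Asns (0.06).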
